A study of Mus musculus with 22 samples.

Results

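Interferon-stimulated genes were examined in the lungs of mice that had received Mitsui7, a multiwalled carbon nanotube (MWCNT). The list held 41 mouse genes chosen by their role: chemokines, interferon-regulated transcription factors, nucleic acid sensors, IFIT proteins, the 2'-5' oligoadenylate synthetase (OAS) family, the ISG15 system, other antiviral effectors, interferon-gamma-inducible GTPases and genes of antigen processing. Of these, 38 had a named probe among the 20018 named genes, and all 38 were expressed by the criterion below. Cxcl11, Mx1 and Mx2 were not analysed here.

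The samples were right lungs of 22 female C57BL/6 mice that were 8 weeks old at exposure, collected 24 h after a single intratracheal instillation. Control mice (n = 5) had received the vehicle, saline with lavage fluid of untreated mice, and the exposed mice the same vehicle with 18 µg (n = 6), 54 µg (n = 5) or 162 µg (n = 6) of Mitsui7. Each lung was hybridised on its own 2-colour Agilent array against Universal Mouse Reference RNA, a mixture from mouse cell lines, so that every value is a log2 ratio of lung over reference for 1 probe. Whole lung holds many cell types, and fewer cells of a type and less RNA per cell cannot be told apart in it.

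Interferons are secreted proteins that cells release after sensing foreign or misplaced nucleic acids and other danger signals. Type I interferons signal through JAK kinases to a complex that includes STAT2 and IRF9 and binds interferon-stimulated response elements (ISRE), and interferon-gamma acts through gamma-activated sites (GAS). The genes switched on in this way restrict viruses and intracellular microbes, present antigen and recruit lymphocytes, and in the lung most are made at some level by epithelium, endothelium and leukocytes.

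To show the elements through which the members are known to be controlled, the 250 bases before the start of each gene were searched for an ISRE-type motif, which is GAAA, any 2 bases and GAAA on either strand. A RefSeq table for build GRCm38.p6 held 30 of the 41 members, and 14 of these 30 promoters (46.7%) held the motif, against 821 of the 27025 genes in the table (3.04%). A GAS-type motif, TTC, any 3 bases and GAA, was found in 8 of the 30 (26.7%) against 7.18% of all, and 4 (13.3%) held both motifs against 0.389%. Of the 5 members counted as lower at 162 µg by the criterion below, Bst2, Gbp2 and Gbp3 held the ISRE-type motif, and Cmpk2 and Isg20 did not. A match says only that these letters occur in the window. The stretches around the matches follow for 3 genes of the list with well known type I elements and for 3 that were lower at 162 µg, written 5′ to 3′ on the strand of the gene, with the matches in capitals:
Cxcl10 (chr5:92349053-92349139, minus strand): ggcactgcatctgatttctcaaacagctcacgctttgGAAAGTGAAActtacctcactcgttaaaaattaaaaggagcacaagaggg
Isg15 (chr4:156200835-156200936, minus strand): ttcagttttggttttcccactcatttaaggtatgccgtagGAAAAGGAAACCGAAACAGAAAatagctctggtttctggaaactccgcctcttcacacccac
Ifit1 (chr19:34640745-34640853, plus strand): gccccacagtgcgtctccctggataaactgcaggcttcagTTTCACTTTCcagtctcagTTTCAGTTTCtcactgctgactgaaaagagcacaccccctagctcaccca
Bst2 (chr8:71537547-71537642, minus strand): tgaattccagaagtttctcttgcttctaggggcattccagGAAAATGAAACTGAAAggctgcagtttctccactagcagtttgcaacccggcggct
Gbp2 (chr3:142620564-142620653, plus strand): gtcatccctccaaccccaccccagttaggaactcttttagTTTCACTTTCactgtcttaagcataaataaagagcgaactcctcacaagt
Gbp3 (chr3:142559959-142560043, plus strand): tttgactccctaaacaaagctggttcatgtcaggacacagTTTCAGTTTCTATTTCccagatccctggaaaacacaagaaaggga
Isg15 held 3 overlapping matches in a single run, Bst2 and Gbp3 held 2 overlapping matches each, and Ifit1 held 2 separate ones.

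Array quality differed between mice. The median Cy5 signal of the lung RNA was 1.17 to 2.48 times the local background, and 52.1 to 83.5% of probes exceeded the detection threshold, which was set from 308 negative control spots. On every array 37 or 38 of the 38 members exceeded it, and no member was saturated. The 22 arrays lay on 7 slides, each scanned on its own day, and 2 slides held no control, so the slide was a term of the fit. The median of 9 neutrophil markers was highest in the control mouse with replicate number 2 and the 162 µg mouse with replicate number 2. It lay there 1.82 and 2.10 above the control mean on the log2 scale. Of these values, only that of the control mouse passed the search for outliers described below. The median of 6 lung identity genes lay between -1.32 and 0.86 in all mice, with the lowest value in 1 mouse of the 54 µg group, and none of the 6 genes changed at any dose, with 1, 0 and 0 of them at an unadjusted p under 0.05 in limma.

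The questions asked of these genes were which of them differed from control at each dose, whether the doses differed from each other, and whether the pathway upstream moved with them. A gene was counted as changed when limma's adjusted p over all 55681 probes was at most 0.05, the fitted change was at least 1.5-fold, and the probe was expressed, meaning above the detection threshold on 80% of the arrays of a group. Each difference is given as a log2 fold change with its standard error (SE). The p-values measure the spread between mice. A probe can also bind the RNA of a near-identical relative, so that single values within the OAS, GBP, IFIT, Irgm and interferon-alpha families are uncertain.

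**Figure D1:**
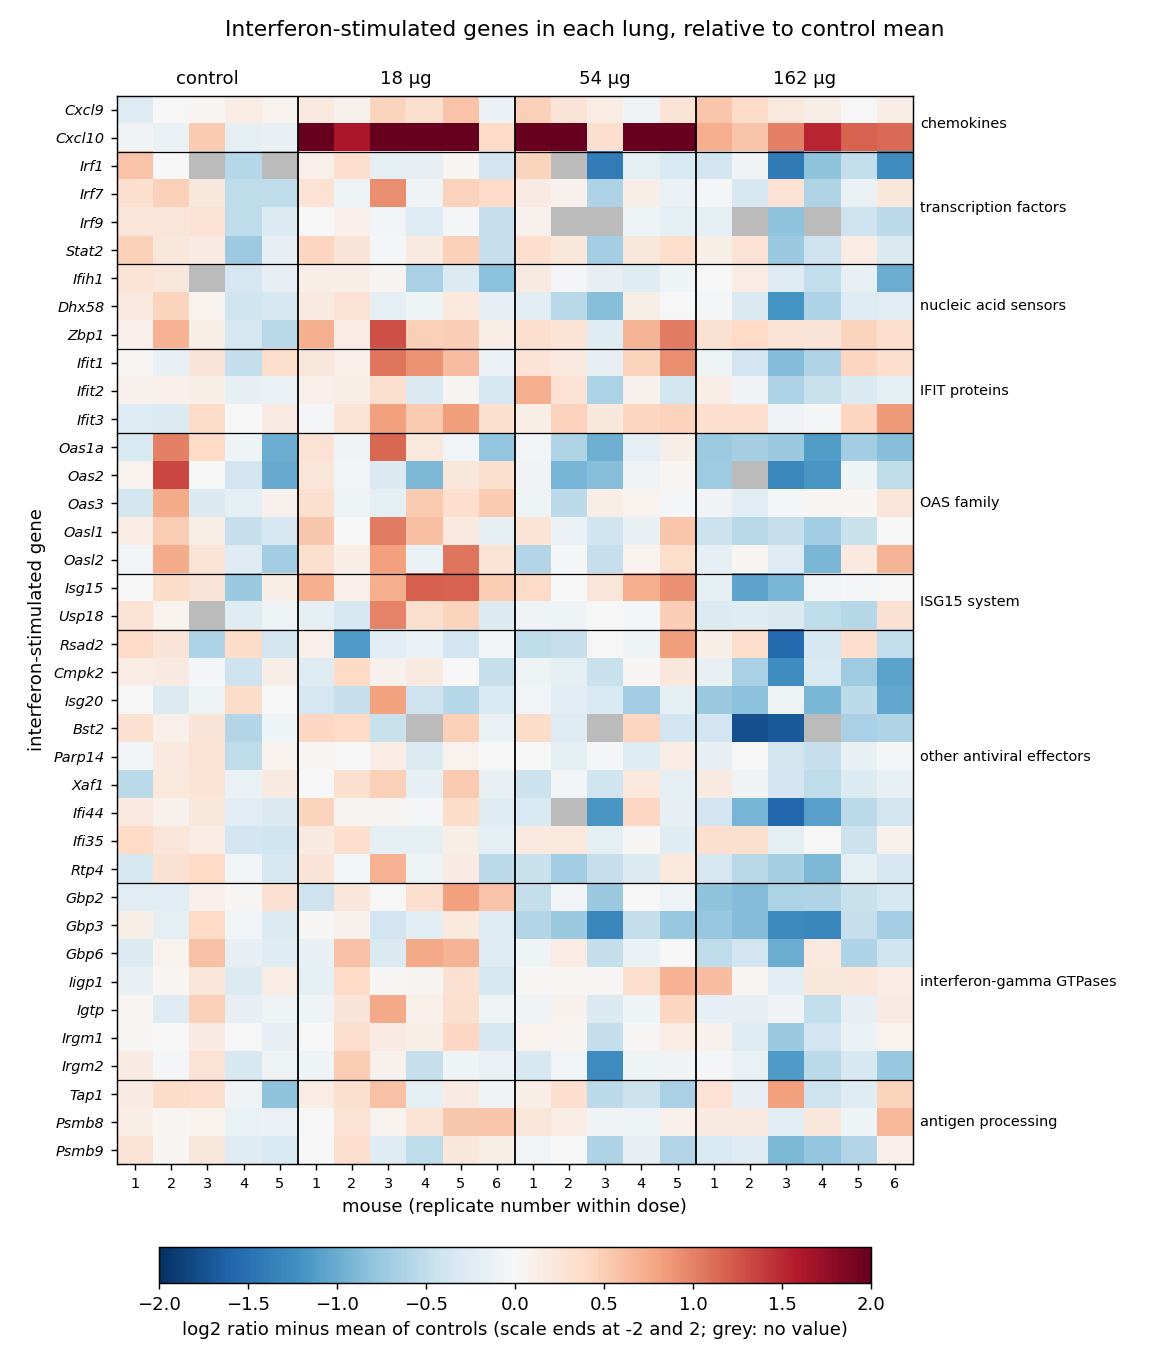
Log2 ratio of each of the 38 interferon-stimulated genes (vertical axis) in each of the 22 mice (horizontal axis, grouped by dose), after subtraction of the control mean of that gene. Cxcl10 is above every control in all but 1 mouse of the 18 µg group and all but 1 of the 54 µg group, while most other genes are within 1 log2 unit of the control mean and are lower at 162 µg than at 18 µg.

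At 18 µg no member passed the test, and at 54 µg none did. Nevertheless, 34 of the 38 fitted values lay above 0 at 18 µg, with a median of 0.17 on the log2 scale, against 9521 of 20018 named genes and a median of -0.01. Without 18 µg replicate number 3 the members' median was 0.09. At 18 µg, 0.633% of all 16433 expressed named genes were called higher and 1.44% lower, so that a count of 0 among 38 was near the background, and 6 members had an unadjusted p under 0.05 in limma. At 54 µg the members were split, with 18 above and 20 below 0 and a median of -0.02. There 0.249% of all genes were called higher and 0.140% lower, and 3 members had an unadjusted p under 0.05.

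At 162 µg, in contrast, 5 members fell and none rose. These were Bst2, Cmpk2, Gbp2, Gbp3 and Isg20, and they made up 5 of 38 members, against 3.54% of all expressed named genes called lower and 3.34% called higher. Of the 38 fitted values, 28 lay below 0, with a median of -0.26, while all named genes were divided evenly with 10038 below 0 and a median of -0.00. In all, 16 members had an unadjusted p under 0.05 at this dose. Without replicate number 3 of the 54 µg group the count was 8 in place of 5. No member was called when arrays were only centred on their median or not normalized at all, settings in which 242 and 4 of all genes were called lower in place of 581. The mice of a dose group did not often separate from the control mice. At 162 µg every mouse lay below every control for 3 members (Gbp2, Gbp3 and Ifi44), against 4.48% of all genes, and above for 1 (Cxcl10), against 3.72%. At 54 µg Gbp3 lay wholly below the controls, against 1.80% of all genes, and no member lay wholly above, against 1.51%. At 18 µg no member was wholly separated, against 1.42% of all genes above and 1.98% below.

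**Figure D2:**
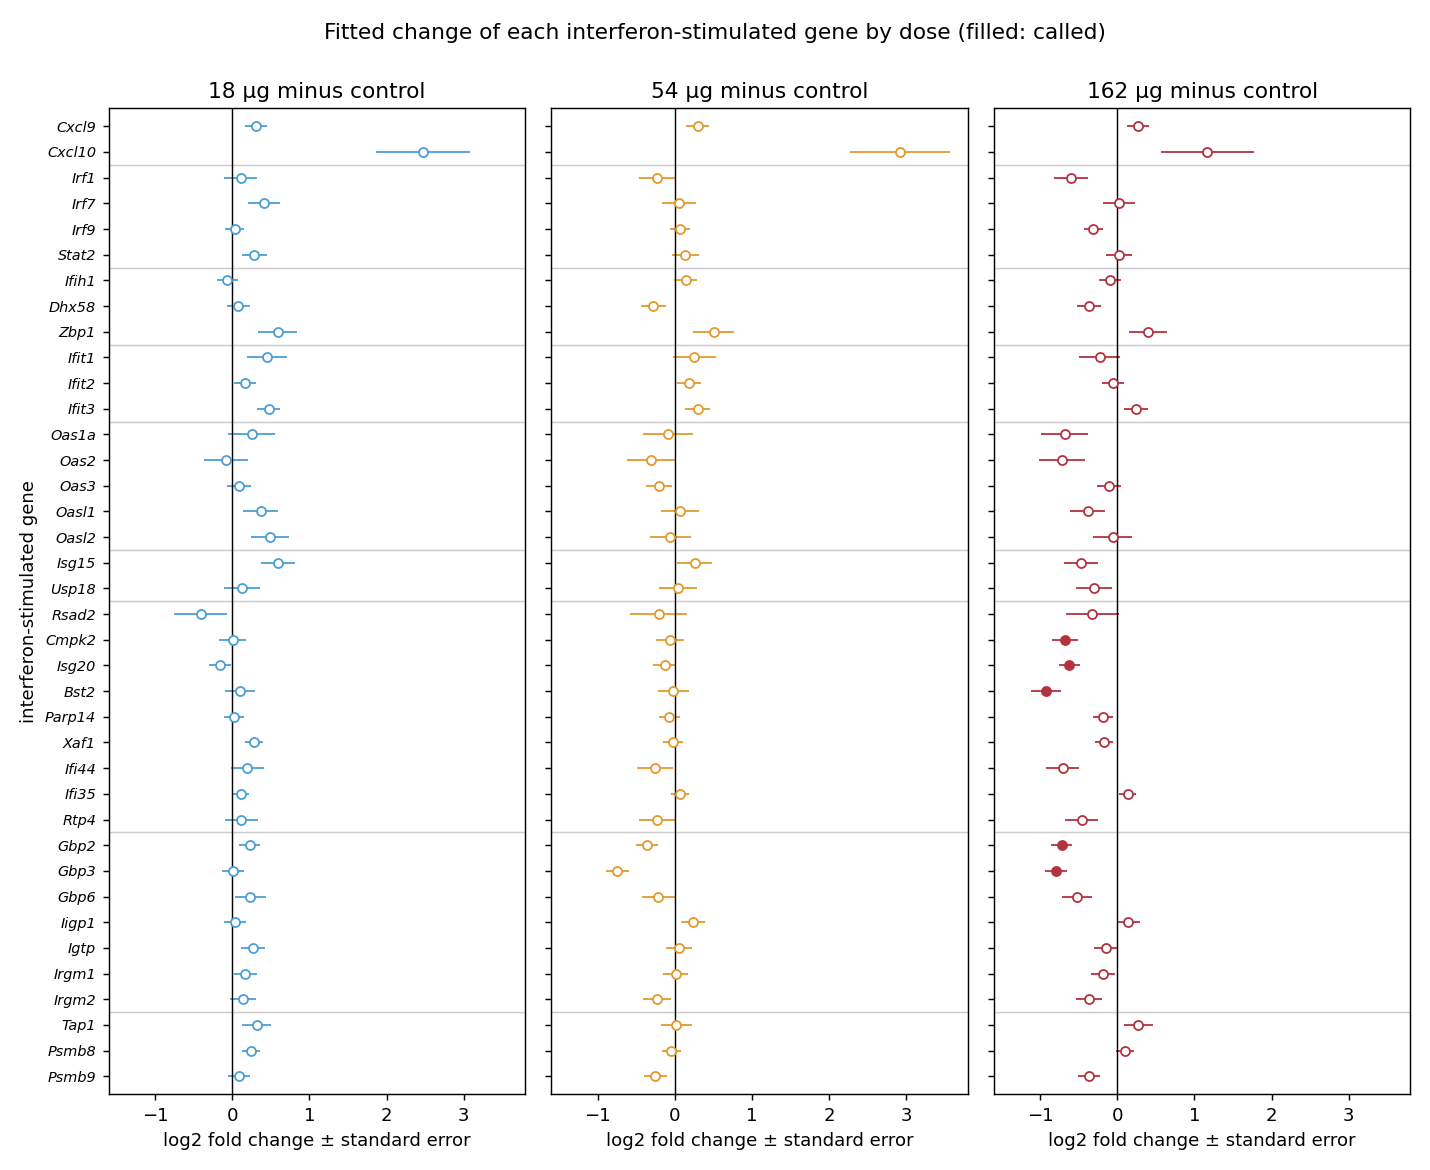
Fitted log2 fold change against control with its standard error for the 38 genes (vertical axis, ordered by role) at 18, 54 and 162 µg (panels), where filled points passed the test. Filled points occur only at 162 µg, for Bst2, Cmpk2, Gbp2, Gbp3 and Isg20, all to the left of 0.

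**Figure D3:**
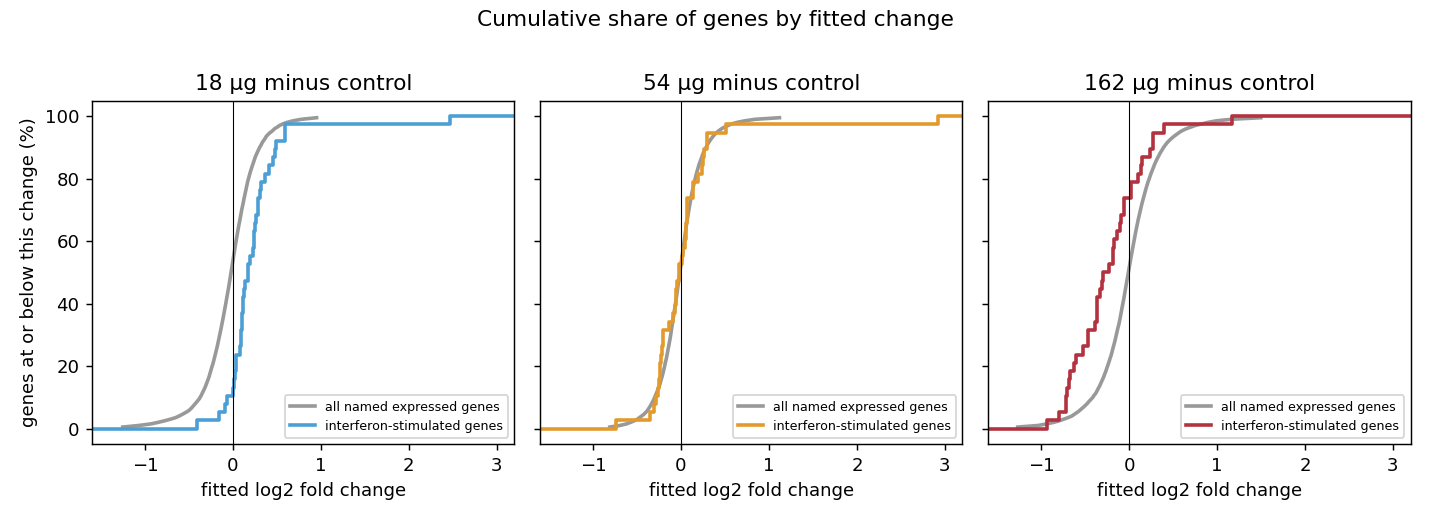
Cumulative share of genes (percent, vertical axis) at or below each fitted log2 fold change (horizontal axis) at 18, 54 and 162 µg, for the 38 members and for all expressed named genes. The members' curve lies to the right at 18 µg (median 0.17), near that of all genes at 54 µg (-0.02) and to the left at 162 µg (-0.26).

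Cxcl10, the chemokine that recruits CXCR3-bearing T and NK cells, had the largest fitted rises of the list at all 3 doses. In the control mice its log2 ratios were -2.16, -2.11, -2.10, -2.04 and -1.44. At 18 µg they ran from -1.59 over a median of 0.51 to 2.13, at 54 µg they were -1.64, 0.52, 1.01, 1.51 and 2.48, and at 162 µg they ran from -1.40 over a median of -0.90 to -0.44. Thus 1 mouse of the 18 µg group and 1 of the 54 µg group lay among the controls and the others of these groups above them, and all 6 mice at 162 µg lay above the highest control, the lowest of them only just.

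The fitted change of Cxcl10 was 2.47 (SE 0.61) at 18 µg, 2.92 (SE 0.65) at 54 µg and 1.17 (SE 0.61) at 162 µg on the log2 scale. The adjusted p of limma was 0.0522, 0.0871 and 0.338, so that Cxcl10 was not called at any dose. Within every slide that held both a control and an exposed mouse the exposed mouse was higher, by 1.77 to 4.29 on 4 slides at 18 µg, 2.64 to 3.05 on 3 slides at 54 µg and 0.05 to 1.31 on 4 slides at 162 µg. Leaving out the low mouse at 18 µg (replicate number 6) gave 2.88 and leaving out the low mouse at 54 µg (replicate number 3) gave 3.48, each with a call at its dose. Cxcl10 was also called at 18 µg without replicate number 3 or 5 of the 54 µg group or replicate number 4 or 6 of the 162 µg group, and at 54 µg without replicate number 6 of the 18 µg group. Between 162 and 18 µg Cxcl10 differed by -1.30 (SE 0.57, adjusted p = 0.256), and between 162 and 54 µg by -1.75 (SE 0.61, adjusted p = 0.412), and neither difference was called.

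Cxcl9, the interferon-gamma-induced ligand of the same receptor, had smaller fitted changes, from a dim probe. The control mice had log2 ratios of -0.04, 0.21, 0.25, 0.28 and 0.36, and the 18 µg mice ran from 0.10 over a median of 0.47 to 0.79. The groups overlapped at every dose. The fitted changes were 0.31 (SE 0.14), 0.30 (SE 0.15) and 0.27 (SE 0.14) at 18, 54 and 162 µg, none of them called. A second, dimmer probe gave 0.41, 0.42 and 0.43, also not called. The lung signal of the first was well above background on 4, 5, 4 and 4 arrays of the control, 18, 54 and 162 µg groups. Its reference signal was so on 10 of the 22 arrays, against all 22 for Cxcl10. The sizes of the changes in Cxcl9 and Cxcl10 are therefore not directly comparable.

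None of the transcription factors on the list passed the test. Irf7, the factor that amplifies type I interferon, had control values of -1.54, -1.53, -0.80, -0.71 and -0.55 and 18 µg values from -1.13 over a median of -0.69 to -0.10. Its groups overlapped throughout, and its fitted changes were 0.41 (SE 0.21), 0.06 (SE 0.22) and 0.02 (SE 0.21) with rising dose. Stat2, a subunit of the type I interferon complex, had 0.29, 0.14 and 0.02. Irf9, the DNA-binding subunit of that complex, had 0.03, 0.07 and -0.31, where spots were left out for 2 mice at 54 µg and for 2 at 162 µg. Irf1, which acts downstream of interferon-gamma, had 0.11, -0.23 and -0.60, with values for 3 of 5 control mice and 4 of 5 mice at 54 µg. At 162 µg Irf1 and Irf9 had an unadjusted p under 0.05, and their adjusted p was 0.132 and 0.196.

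Among the nucleic acid sensors no gene was called. Zbp1, which senses Z-form nucleic acids and can start necroptosis, had the largest values, 0.59 (SE 0.25, adjusted p = 0.260), 0.51 (SE 0.27) and 0.40 (SE 0.25). The control mice ranged widely, at -1.48, -1.26, -0.82, -0.81 and -0.22, and the 162 µg mice lay inside that range, from -0.66 to -0.48. A second, dimmer probe of Zbp1 gave 0.21, 0.30 and -0.10, and without 18 µg replicate number 3 the value of the first at 18 µg was 0.37. Ifih1, the MDA5 sensor of long double-stranded RNA, had -0.06, 0.14 and -0.09, with a value for 4 of 5 control mice. Dhx58, which encodes LGP2, a regulator of that sensing, had 0.08, -0.28 and -0.36.

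The IFIT genes, whose proteins bind viral RNA and block its translation, had a median of 0.45 at 18 µg, 0.26 at 54 µg and -0.06 at 162 µg on the log2 scale. Ifit1 had control values of -0.46, -0.12, 0.04, 0.27 and 0.37, ran from -0.10 over a median of 0.44 to 1.09 at 18 µg and from -0.85 over a median of -0.23 to 0.45 at 162 µg. The 18 µg and control mice overlapped, with 3 of 6 above every control, and no dose was called, with fitted changes of 0.45 (SE 0.26), 0.26 (SE 0.28) and -0.23 (SE 0.26). Ifit3 had 0.47, 0.30 and 0.24, and an adjusted p of 0.124 at 18 µg, and Ifit2 had 0.17, 0.19 and -0.06.

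The OAS family holds synthetases that activate RNase L on double-stranded RNA, and related Oasl genes. All 5 genes had fitted values below 0 at 162 µg, with none called. Oas2 differed from control by -0.08 (SE 0.29), -0.31 (SE 0.31) and -0.72 (SE 0.29), with an adjusted p of 0.196 at 162 µg and a value for 5 of 6 mice there. Its control mice spanned -1.37 to 0.98, and the 162 µg mice, from -1.65 to -0.44, overlapped them. Without the control mouse with replicate number 2 the value of Oas2 at 162 µg was -0.30, and without control replicate number 5 it was -1.16 and was called. Oas1a had 0.25, -0.09 and -0.68, Oas3 had 0.09, -0.20 and -0.11, and the related Oasl1 and Oasl2 had -0.39 and -0.06 at 162 µg.

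Isg15, the ubiquitin-like modifier, had control values of -1.04, -0.29, -0.17, -0.04 and 0.07. It ran from -0.20 over a median of 0.42 to 0.91 at 18 µg, was -0.29, -0.06, 0.09, 0.43 and 0.61 at 54 µg, and ran from -1.35 over a median of -0.41 to -0.30 at 162 µg. All but 1 of the 18 µg mice lay above every control, and every 162 µg mouse lay below every 18 µg mouse. Against control Isg15 differed by 0.59 (SE 0.22, adjusted p = 0.182), 0.26 (SE 0.23) and -0.47 (SE 0.22, adjusted p = 0.261), none of them called. Usp18, the protease that removes ISG15 and dampens type I signalling, had 0.13, 0.04 and -0.30, with a value for 4 of 5 control mice.

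Of the other antiviral effectors, Bst2, Cmpk2 and Isg20 fell at 162 µg. Bst2 (tetherin), which holds budding virus at the cell surface, had control values of -0.33, 0.17, 0.35, 0.52 and 0.57. The spots of 1 mouse at each dose were left out. Values at 18 µg were -0.19, 0.12, 0.64, 0.67 and 0.74, at 54 µg -0.12, -0.01, 0.63 and 0.69, and at 162 µg -1.50, -1.43, -0.40, -0.34 and -0.12. Of the 5 mice with a value at 162 µg, 4 lay below every control. The other doses overlapped the controls, with 3 mice at 18 µg and 2 at 54 µg above them all. The fitted fall was -0.93 (SE 0.19, 1.90-fold lower, adjusted p = 0.0106) at 162 µg, beside 0.10 at 18 µg and -0.02 at 54 µg.

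Cmpk2, a mitochondrial nucleoside monophosphate kinase, had control values of 1.63, 2.00, 2.17, 2.19 and 2.23 and ran from 0.80 over a median of 1.36 to 1.89 at 162 µg. At this dose 4 of 6 mice lay below every control. The fitted fall was -0.67 (SE 0.17, 1.60-fold lower, adjusted p = 0.0250), beside 0.01 at 18 µg and -0.06 at 54 µg. The call was lost without any 1 of control replicate numbers 1, 3 and 5 or 162 µg replicate numbers 2, 3 and 5, while the fitted value lay between -0.75 and -0.58 over the 22 fits that each left out 1 mouse. A second probe of the gene had 0.39, 0.07 and -0.42 with rising dose and was not called.

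Isg20, an exonuclease that degrades single-stranded RNA, had control values of 0.73, 0.91, 1.00, 1.02 and 1.38 and ran from -0.03 over a median of 0.23 to 0.91 at 162 µg. All but 1 of the 162 µg mice lay below every control. The fitted fall was -0.62 (SE 0.14, 1.54-fold lower, adjusted p = 0.0122), close to the 1.5-fold limit, and the call was lost without control replicate number 5 (-0.54) or 162 µg replicate number 6. At 18 µg Isg20 ran from 0.43 over a median of 0.64 to 1.81, with a fitted value of -0.16, and at 54 µg it had -0.13.

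Ifi44, an interferon-induced cytoplasmic protein, separated fully from the controls at 162 µg without passing the test there. The controls had -1.78, -1.72, -1.40, -1.29 and -1.27 and the 162 µg mice ran from -3.06 over a median of -2.23 to -1.86. The fitted value was -0.71 (SE 0.21, adjusted p = 0.0651), beside 0.19 at 18 µg and -0.26 at 54 µg, where 1 mouse had no value. The remaining effectors were not called at any dose. Rsad2 (viperin), which makes a chain-terminating nucleotide, had -0.41 (SE 0.34), -0.21 (SE 0.37) and -0.33 (SE 0.34). Its values at 162 µg spread from -0.70 to 1.21 around controls of 0.23 to 1.23. Xaf1, a pro-apoptotic antagonist of XIAP, had 0.28, -0.03 and -0.17, and Parp14, a mono-ADP-ribosyltransferase, had 0.02, -0.07 and -0.18. Rtp4 had 0.12, -0.23 and -0.46, and Ifi35 had 0.11, 0.07 and 0.13.

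The interferon-gamma-inducible GTPases, which attack the vacuoles of intracellular pathogens, included 2 of the 5 falls at 162 µg, Gbp2 and Gbp3. Gbp2, a guanylate-binding protein, had control values of 2.28, 2.30, 2.53, 2.61 and 2.82. It ran from 2.09 over a median of 2.79 to 3.33 at 18 µg, was 1.77, 2.02, 2.41, 2.45 and 2.52 at 54 µg, and ran from 1.64 over a median of 1.89 to 2.15 at 162 µg. All 6 mice at 162 µg lay below every control, whereas 18 and 54 µg overlapped them. The fitted values were 0.22 (SE 0.13) at 18 µg, -0.36 (SE 0.14, adjusted p = 0.454) at 54 µg and -0.72 (SE 0.13, 1.65-fold lower, adjusted p = 0.00419) at 162 µg.

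Gbp3 had control values of 1.44, 1.54, 1.66, 1.85 and 2.12 and ran from 1.34 over a median of 1.63 to 1.93 at 18 µg. At 54 µg it was 0.41, 0.97, 0.99, 1.14 and 1.24, and at 162 µg it ran from 0.42 over a median of 0.92 to 1.27. Every mouse of the 54 and 162 µg groups lay below every control, and every 162 µg mouse lay below every 18 µg mouse. The fitted fall at 162 µg was -0.79 (SE 0.14, 1.73-fold lower, adjusted p = 0.00315). At 54 µg the fitted value was -0.74 (SE 0.15, adjusted p = 0.0581), not called, and leaving out 1 of control replicate number 5, 18 µg replicate number 6 or 54 µg replicate number 5 brought it past the threshold. At 18 µg it was 0.01 (SE 0.14).

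Gbp6 had 0.23 (SE 0.20), -0.21 (SE 0.21) and -0.52 (SE 0.20, adjusted p = 0.151) with rising dose. Its controls were 0.93, 0.97, 1.05, 1.28 and 1.79, and 5 of the 6 mice at 162 µg lay below them all, with the last at 1.40. Without 54 µg replicate number 3 Gbp6 was called at 162 µg. A second, dimmer probe of Gbp6 gave 0.22, 0.05 and -0.12 with rising dose. The immunity-related GTPases were not called at any dose. At 162 µg Irgm2 had -0.36, Irgm1 -0.18, Igtp -0.14 and Iigp1 0.14, and at 18 µg these lay between 0.04 and 0.27. The probes of Iigp1 gave different values at every dose. With rising dose the brightest had 0.04, 0.24 and 0.14, and another had 0.67, 0.69 and 0.53 with no call.

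**Figure D4:**
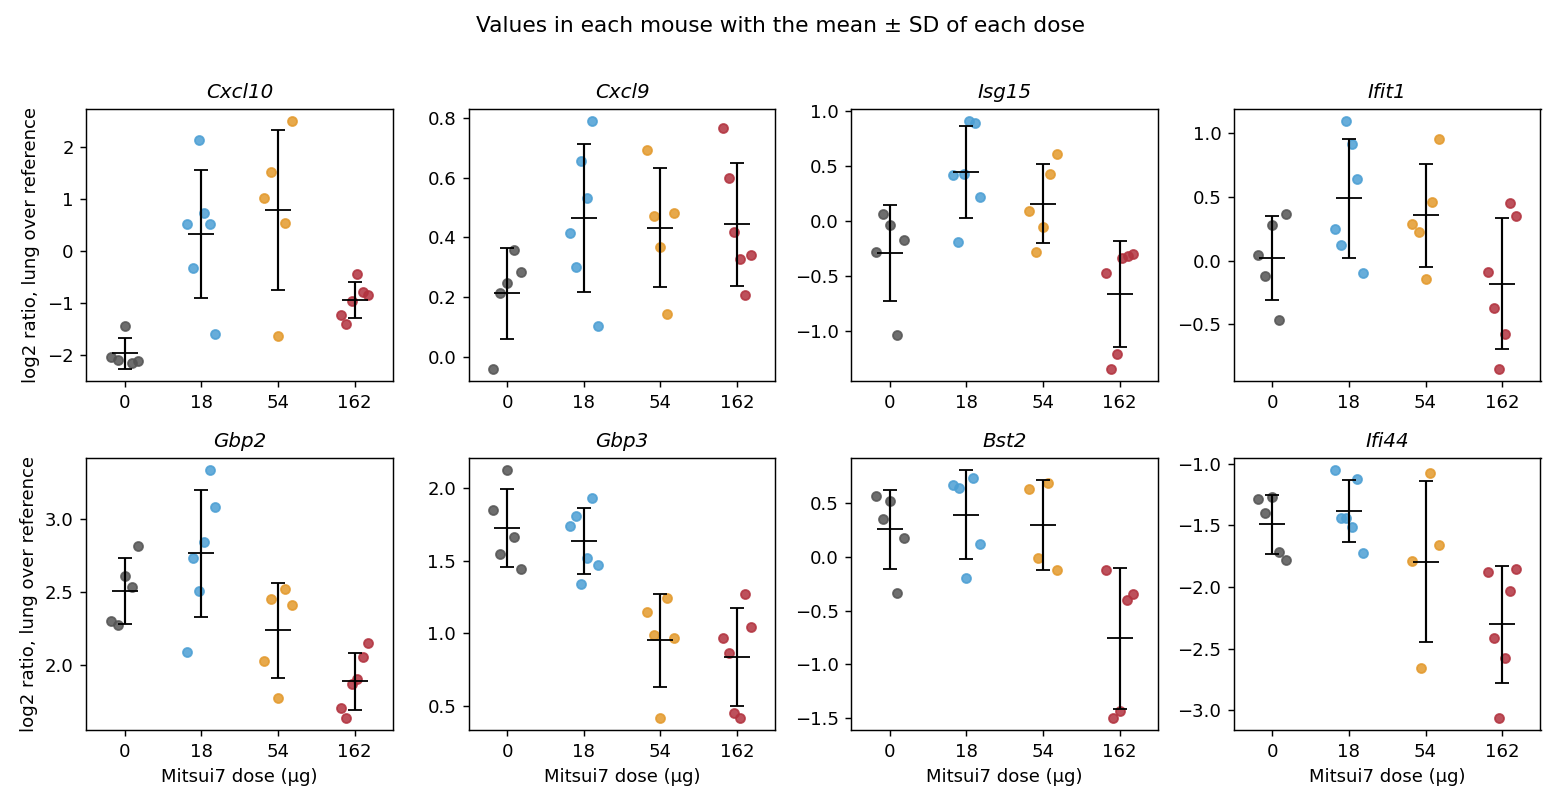
Log2 ratio of lung over reference (vertical axis) in each mouse (points) with the mean ± SD of each dose (horizontal axis, µg, control at 0), for members the text describes. Gbp2 and Gbp3 at 162 µg lie below all 5 controls, and Cxcl10 runs from -1.59 to 2.13 at 18 µg and from -1.64 to 2.48 at 54 µg, with 1 mouse of each group among the controls.

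The antigen processing genes were not called. Psmb8, an immunoproteasome subunit, had control values of 0.27, 0.28, 0.43, 0.46 and 0.53 and ran from 0.41 over a median of 0.68 to 0.94 at 18 µg, with 4 of 6 mice above every control. Its fitted values were 0.24 (SE 0.12), -0.04 (SE 0.13) and 0.10 (SE 0.12). Tap1, the peptide transporter of the endoplasmic reticulum, had 0.32 (SE 0.19), 0.02 (SE 0.20) and 0.27 (SE 0.19). Psmb9, another immunoproteasome subunit, had 0.09, -0.25 and -0.36, with an adjusted p of 0.161 at 162 µg.

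The highest dose was next set against the lowest. Between 162 and 18 µg 7 members were lower and none higher, against 1.66% of all expressed named genes called lower and 3.33% called higher. In all, 35 of 38 members had a fitted difference below 0 with a median of -0.45, while 9672 of 20018 named genes lay below 0 with a median of 0.01, and 23 members had an unadjusted p under 0.05. The 7 were Isg15 (-1.07, SE 0.20, 2.09-fold lower, adjusted p = 0.00603), Bst2 (-1.03, SE 0.18, adjusted p = 0.00515), Gbp2 (-0.94, SE 0.13, adjusted p = 0.000551), Ifi44 (-0.90, SE 0.20, adjusted p = 0.0168), Gbp3 (-0.80, SE 0.13, adjusted p = 0.00227), Gbp6 (-0.76, SE 0.19, adjusted p = 0.0267) and Cmpk2 (-0.68, SE 0.16, adjusted p = 0.0211). Xaf1 had an adjusted p of 0.0261 with a difference of -0.46, which is under 1.5-fold, and Isg20 had -0.46 with an adjusted p of 0.0517. For Isg15, Gbp3 and Ifi44 every mouse at 162 µg lay below every mouse at 18 µg, a pattern seen for 1.05% of all genes, and no member was wholly above, against 2.15% of all genes.

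Some of these calls rested on single mice. The count of 7 fell to 4 without 18 µg replicate number 4 or 162 µg replicate number 3 and rose to 12 without 18 µg replicate number 6. Bst2, Gbp2, Gbp3 and Isg15 were called whichever 1 mouse was left out, whereas Gbp6, Cmpk2 and Ifi44 were lost in 7, 6 and 3 of the 22 cases. The comparison with 18 µg and the comparison with control share the 162 µg mice, and the comparisons of the 3 doses with control share the 5 control mice.

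The middle dose gave no call against its neighbours in these genes. Between 54 and 18 µg no member was called, where 0.0183% of all genes were called higher and 0.0122% lower. The members' median difference was -0.22, with 31 of 38 below 0 and 9 at an unadjusted p under 0.05 in limma, the largest being Gbp3 at -0.75 (SE 0.14, adjusted p = 0.0670) and Gbp2 at -0.58 (SE 0.13, adjusted p = 0.136). Between 162 and 54 µg no member was called, and neither was any gene of the array (0% in each direction). There the members' median was -0.20, with 34 of 38 below 0 and 7 at an unadjusted p under 0.05.

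The shift was also read within slides, where the members of a pair share slide and scan day. The median difference of the members between an exposed and a control mouse was -0.36, -0.28, -0.41 and -0.05 on the 4 slides with a 162 µg pair. On the 4 slides with an 18 µg pair the median was -0.02, 0.03, 0.43 and 0.53, so that the difference was near 0 on slides 1 and 2 and above it on slides 4 and 7. On the 3 slides with a 54 µg pair it was -0.08, -0.22 and 0.18. Between 162 and 18 µg the 5 slides with a pair gave -0.28, -0.52, -0.90, -0.01 and -0.53.

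Per mouse, the median of the members relative to the control mean was -0.24, -0.16, 0.09, 0.14 and 0.23 in the controls. It ran from -0.15 over 0.12 to 0.31 at 18 µg, was -0.43, -0.04, -0.01, 0.02 and 0.07 at 54 µg, and ran from -0.63 over -0.20 to -0.08 at 162 µg. The 18 and 54 µg mice overlapped the controls, and all 6 of the 162 µg mice lay below 0, although 4 of them lay within the range of the controls. Scaling bore on the direction at the lowest dose. The members' median at 18 µg was 0.17 after loess, but -0.17 when each array was only centred on its median and -0.32 without normalization, where the median of all genes also moved to -0.26 and -0.42, so that the members stayed above all genes by 0.09 to 0.19 under 6 scalings. At 162 µg the median was below 0 under each of these 6 scalings, and below that of all genes by 0.23 to 0.31.

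The upstream pathway was then examined. No interferon ligand was called at any dose among the 15 with a named probe, of which 12 were expressed, and 2 of the 15 had an unadjusted p under 0.05 at each dose in limma. The signal of Ifnb1, encoding interferon-beta, was well above background on 1, 1, 0 and 1 arrays of the control, 18, 54 and 162 µg groups. Ifng, encoding interferon-gamma, was well above background on 5, 3, 3 and 2 arrays, with fitted changes of -0.14, -0.33 and -0.37 and an adjusted p of 0.159 at 162 µg. The type I interferon receptor subunits Ifnar1 and Ifnar2 had -0.17 and 0.29 at 18 µg and -0.03 and 0.17 at 162 µg, and the interferon-gamma receptor subunits Ifngr1 and Ifngr2 had -0.20 and 0.29 at 18 µg and 0.15 and 0.03 at 162 µg. None of these 4 was called.

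Of 18 signal transducers and regulators, 1 was called at 18 µg (Irf4) and 1 at 162 µg (Socs3), both higher. Of all expressed named genes, 0.633% and 3.34% were called higher at these doses. Irf3, which switches on Ifnb1, had 0.08, 0.09 and 0.15 with no call. Irf8, a factor of myeloid and dendritic cells, was lower at 162 µg by -0.47 (SE 0.13, adjusted p = 0.0384), which is under 1.5-fold, and was called lower between 162 and 18 µg at -0.63 (SE 0.12, adjusted p = 0.00603). Irf4, a factor of lymphocytes and of alternatively activated macrophages, rose by 0.95 (SE 0.21, adjusted p = 0.0334) at 18 µg. All 6 mice lay above every control, a pattern seen for 1.42% of all genes at that dose. Between 162 and 18 µg Irf4 was called lower, as Irf8 was, where 1.66% of all expressed named genes were called lower. Leaving out 1 mouse changed the count of called genes of this list at 18 µg, from 1 to between 0 and 3, in 10 of 22 fits. Socs1, the feedback inhibitor of interferon signalling, had 0.97 (SE 0.26, adjusted p = 0.0726), 0.88 (SE 0.28) and 0.13 (SE 0.26). It lay above every control in 5 of the 6 mice given 18 µg and in all 5 given 54 µg. At 54 µg 1.51% of all genes lay wholly above the controls. Socs3, the feedback inhibitor of IL-6 type cytokines, rose by 1.28 (SE 0.22, adjusted p = 0.00215) at 162 µg.

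Other interferon-stimulated genes were taken from a wider list of 77, of which 72 had a named probe and 70 were expressed. None was called at 18 or 54 µg, where 9 and 7 had an unadjusted p under 0.05 in limma, and at 162 µg 4 were lower and 2 higher, against 3.54% and 3.34% of all expressed named genes. This count of 6 ran from 2 (without 162 µg replicate number 3) to 8 (without 18 µg replicate number 4) when 1 mouse was left out. The lower genes were Gbp4 (-1.16, SE 0.27, adjusted p = 0.0177), a guanylate-binding protein, Mndal (-1.06, SE 0.15, adjusted p = 0.000719), a member of the HIN-200 family, Gvin1 (-0.71, SE 0.14, adjusted p = 0.00613), a very large inducible GTPase, and Samd9l (-0.62, SE 0.12, adjusted p = 0.00659), an antiviral translation inhibitor. The higher ones were Ly6a (0.90, SE 0.21, adjusted p = 0.0169), which encodes Sca-1, and Lgals9 (0.73, SE 0.18, adjusted p = 0.0193), which encodes galectin-9. The median of the 72 was 0.10, 0.00 and -0.06 with rising dose. The MHC class I list had medians of 0.22, 0.04 and -0.04 with no gene called, and 2, 0 and 2 of 10 at an unadjusted p under 0.05, and the MHC class II list had 0.18, -0.53 and -0.37, with H2-Ob lower at 162 µg (-0.91, SE 0.25, adjusted p = 0.0396), a call lost in 12 of the 22 fits that each left out 1 mouse.

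Some leukocyte markers also changed at 162 µg. There 2 of 6 B cell markers and 2 of 12 T and NK cell markers were called lower, against 3.54% of all expressed named genes. At 162 µg the median of 6 B cell markers was -0.53, with Ms4a1 (-0.89, adjusted p = 0.0125) among the genes called lower, and that of 12 T and NK cell markers was -0.31, with Gzma (-1.38, adjusted p = 0.0446) and Tbx21 (-0.70, adjusted p = 0.0155) lower. The count of T and NK cell markers called ran from 0 (without control replicate number 3 or 162 µg replicate number 1) to 4 (without 162 µg replicate number 3) when 1 mouse was left out. The per mouse median of the B cell markers ran from -0.31 to 0.36 in the controls and from -0.84 to -0.19 at 162 µg, and that of the T and NK cell markers from -0.24 to 0.17 and from -0.73 to -0.02. Of 6 monocyte and macrophage markers only Marco was called at 162 µg, higher by 1.51 (SE 0.28, adjusted p = 0.00457). The median of the list was -0.46, and 3.34% of all expressed named genes were called higher. The median of 4 plasmacytoid dendritic cell markers was -0.30 with none called and 2 of 4 at an unadjusted p under 0.05, and that of 9 neutrophil markers was 0.64 with none called and 2 of 9 at an unadjusted p under 0.05.

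None of these B, T or NK cell markers was called at 18 µg. There the median of the B cell markers was 0.33 and that of the T and NK cell markers 0.01, with 2 of 6 and 2 of 12 genes at an unadjusted p under 0.05 in limma, while Chil3, a macrophage chitinase-like protein, rose by 1.73 (SE 0.41, adjusted p = 0.0454), a call lost in 15 of the 22 fits that each left out 1 mouse. Between 162 and 18 µg 3 of the 6 B cell markers and 3 of the 12 T and NK cell markers were called lower, against 1.66% of all expressed named genes. At 54 µg, where the members' median was -0.02, the median of the B cell markers was -0.47 and that of the T and NK cell markers -0.27, close to their values at 162 µg, with none called and 2 of 6 and 2 of 12 genes at an unadjusted p under 0.05 in limma. The part of these cells in the lower values of the interferon-stimulated genes was not tested. The mice with the highest neutrophil markers were control replicate number 2 and 162 µg replicate number 2. Without them the members' median at 162 µg was -0.16 in place of -0.26, and 2 members were called lower in place of 5.

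**Figure D5:**
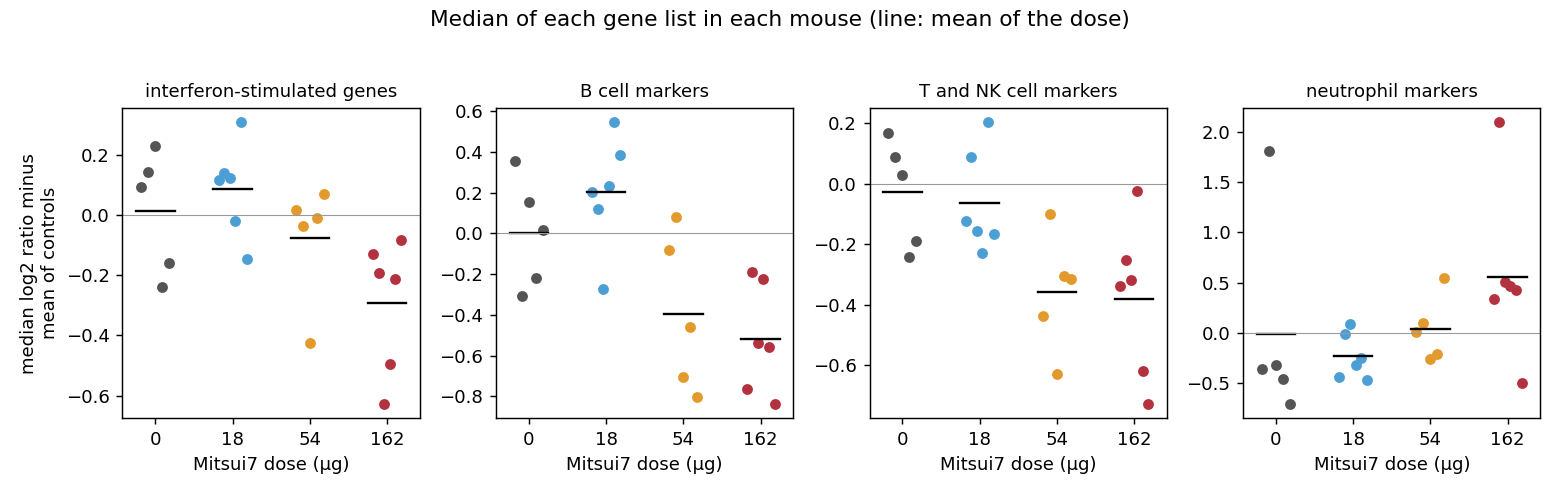
Median log2 ratio of each gene list in each mouse (points) relative to the mean of the controls (vertical axis), with the mean of each dose as a line (horizontal axis, µg, control at 0), for the members and for marker lists of other cell types. The members and the B cell and T and NK cell markers are lowest at 162 µg, and the neutrophil markers of 1 control mouse and 1 mouse at 162 µg lie near 2.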

How the data were processed

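Total RNA of 22 right lungs (5 control, 6, 5 and 6 mice at 18, 54 and 162 µg) was hybridised to 2-colour Agilent arrays with lung RNA in Cy5 and reference RNA in Cy3, without dye swap. Per the file headers the scanner output came from Feature Extraction 10.7.3.1, and the deposited median spot intensity of each channel was not background subtracted. A second deposited source, log2 ratio values that the authors had normalized, served as an alternative, and its normalization is not given in the sources used here.

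Each array's log2 ratio of Cy5 over Cy3 was normalized by loess (span 0.3), spots with outlier flags were left out, and replicate spots were reduced to their median. limma 3.58.1 in R 4.3.3 fitted dose and slide over all 22 arrays (12 residual degrees of freedom), with Benjamini-Hochberg adjustment over 55681 probes. Slide and scan day cannot be told apart. A probe was expressed when, in 1 group or more, 80% or more of arrays had a Cy5 signal above the 5% trimmed mean plus 3 trimmed SD of 308 negative controls. RefSeq accessions named 26413 probes of 20018 genes, and a gene is its brightest probe. The fit was tested on simulated data, in the comparison of 162 µg with control over 55681 probes. There 68% of 100 probes changed by 0.8 and 97% of 100 changed by 1.5 on the log2 scale were recovered. The simulated noise was normal and independent between probes, and only expressed probes with a value on every array were changed. These rates need not hold for members with missing values or a wide spread.

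Members and lists were chosen with earlier results of these data known. Full statistics are given for members called at any dose or between doses, the 3 largest rises and falls at each dose, and 7 genes whatever their values (Cxcl9, Cxcl10, Irf7, Isg15, Ifit1, Gbp2 and Psmb8); of other genes, a named set of pathway genes and those called in a list. Alternatives were other scalings, background correction, filters, probe rules, terms for slide or replicate number, the 2 groups alone and leaving out each mouse. The number of arrays limits the precision. Some genes are not reported here.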

Additional observations from a re-analysis of the deposited data

Results flagged for a closer look

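A value far from the others of its group was looked for in the 68 combinations of a fully described member and a dose and in 20 of list medians and a dose, 88 in all, and 4 stood out, where chance alone gives about 1 in 20 groups. Cxcl10 in the control mouse with replicate number 3 was the highest of its group, with a log2 ratio of -1.44, against -2.04 for the next control. Isg20 in the 18 µg mouse with replicate number 3 was the highest of its group at 1.81, against 0.71 for the next. The median of all members was lowest in the 54 µg mouse with replicate number 3, at -0.43 relative to the control mean, against -0.04 for the next. The median of the neutrophil markers was highest in the control mouse with replicate number 2, at 1.82 against -0.32 for the next control.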

How the results depend on the processing

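With each array only centred on its median, 0 members were called at 162 µg and 0 between 162 and 18 µg, and the members' median was -0.17 at 18 µg and -0.50 at 162 µg on the log2 scale. Without normalization these values were 0, 0, -0.32 and -0.51. At 18 µg the fitted value of Psmb8 turned to -0.18 with median centring and -0.34 without normalization, and that of Isg15 to -0.035 without normalization. From the Cy5 channel alone, 1, 1 and 3 members were called at 18, 54 and 162 µg, in place of 0, 0 and 5. With slide as a random block 1 and 2 were called at 18 and 54 µg. With only the 2 groups compared, 1 and 1 were called, and with the mean of all probes of a gene, 1 and 1. Without a slide term 3 were called at 162 µg. Without control replicate 2 and 162 µg replicate 2 together, an alternative chosen after seeing the data, 2 were called at 162 µg. The cause of these differences was not tested. For the 6 counts and 3 medians over the members, these and the remaining settings gave 279 values near the main one and 36 that were not. Near meant within 1.5 times the main count, or within 1 SD between mice of the main median. That SD was 0.19, larger in size than the members' median at 18 µg (0.17) and at 54 µg (-0.02). A median could therefore change sign and still be counted as near. In addition, 176 counts over the pathway and marker lists moved by more than 1.5 times.

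Leaving out 1 mouse gave 0 to 1 members called at 18 µg, 0 to 2 at 54 µg, 4 to 8 at 162 µg, 0 to 1 between 54 and 18 µg (1 without 18 µg replicate 1), 4 to 12 between 162 and 18 µg, and 0 to 2 between 162 and 54 µg (2 without 54 µg replicate 3). The replicate numbers were not taken as a pairing, although these values cannot exclude one. Over 31 pairs with the same number the deviations from the group means had a median correlation of 0.17. It ran from -0.17 to 0.62, and 20 pairs exceeded 0.1. The median was 0.10 for pairs with the same number on different slides and -0.08 for pairs that shared neither. On the same slide it was 0.27 for pairs with the same number and 0.25 for pairs with different numbers. With a replicate block in place of slide, 1, 1 and 5 members were called at 18, 54 and 162 µg and 8 between 162 and 18 µg. Of 34 gene values within 2 SE of 0, 22 changed sign in some setting and 0 were called in any. Signals were dim, which limits small changes.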

Other observations

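Of 16 further genes of nucleic acid sensing, none was called at any dose, with 4, 5 and 5 of them at an unadjusted p under 0.05 in limma at 18, 54 and 162 µg. Their median log2 fold change was 0.07, -0.07 and -0.03 with rising dose. Of 6 endothelial markers, Kdr, the VEGF receptor of endothelium, rose by 0.65 (SE 0.16, adjusted p = 0.0478) at 18 µg and had 0.21 and 0.06 at the higher doses, with the call at 18 µg lost in 17 of the 22 fits that each left out 1 mouse, and the median of the list was 0.19, 0.01 and 0.13. Of 4 eosinophil markers none was called, with 0, 1 and 1 at an unadjusted p under 0.05.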
